A study of Mus musculus with 10 samples.

Results

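The 8 genes described here include *Id1*, *Id2*, *Id3* and *Id4*, which encode the inhibitor of DNA binding proteins. The others are *Smad6*, *Smad7* and *Bambi*, which restrain bone morphogenetic protein (BMP) signaling, and *Smad9*, itself a BMP target. Together they are 8 of 25700 genes counted in regenerating muscle. The group was chosen by measured values: *Id1* and *Id3* were among the genes with a small p that were lower in miR-501KO than in Pax7Cre mice, and their relatives were added by function. The genotype contrast of these genes is therefore given as a description, and nothing is read from their p-values.

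Tibialis anterior muscle was taken from 5 Pax7Cre and 5 miR-501KO mice, all male C57BL/6 animals aged 12 weeks, at day 6 after cardiotoxin, a snake venom toxin that kills myofibers and starts regeneration. The miR-501KO mice carried Pax7Cre and a floxed *Mir501* allele on their X chromosome (Pax7CremiR-501fl/Y), and the controls carried Pax7Cre too, although their genotype label reads wild type. *Pax7* is active in muscle stem cells, so this Cre acts in the myogenic lineage. By design, endothelial cells, fibroblasts and immune cells of the same muscle keep the allele intact. Whether those cells express the miRNA was not measured here. The label of the knockout group, miR-501 -/-, does not name the Cre driver. Counts summed to between 18609222 and 22064583 per Pax7Cre mouse and to between 20046670 and 24753258 per miR-501KO mouse. Expression of *Mir501* was not analysed here, so these counts do not check the deletion.

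BMP ligands bind receptor kinases that phosphorylate SMAD1, SMAD5 and SMAD9, and these enter the nucleus with SMAD4. *Id* genes are direct and rapid targets of this complex. ID proteins have a helix-loop-helix domain but no DNA-binding region, so they capture E proteins and keep them from pairing with tissue factors such as MYOD1. In muscle, BMP signaling keeps activated stem cells dividing and delays their differentiation, and in blood vessels *Id1* and *Id3* are expressed by endothelial cells. The inhibitory genes *Smad6*, *Smad7* and *Bambi* are induced by the same signals and close a negative feedback loop.

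2 libraries stood apart before any gene was compared. On the first principal component of log2 CPM (counts scaled to library size after TMM normalization), which held 32.2% of the variance, Pax7Cre mouse 2 lay at 44.9 and Pax7Cre mouse 4 at -27.8, with the other 8 mice between -9.58 and 17.2. Mitochondrial genes took 13.98% of the counts of Pax7Cre mouse 2 and 6.59% of those of Pax7Cre mouse 4, the highest and lowest of the 10 mice. Among miR-501KO mice, mouse 4 lay at 17.2, and the next at -1.43. Some values below are therefore also given without 1 or both of Pax7Cre mice 2 and 4.

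*Id1*, which lies at chr2:152736251-152737410 on the plus strand of GRCm38, had the largest difference in mean among the 8 genes on the log2 scale. Its product binds E proteins and delays differentiation. Its normalized counts in Pax7Cre mice 1 to 5 were 24.8, 24.2, 23.8, 19.2 and 20.7 CPM. In miR-501KO mice 1 to 5 they were 14.6, 16.2, 15.99, 23.6 and 14.6 CPM. Of the miR-501KO mice, 4 lay below every Pax7Cre mouse, and mouse 4 lay among the controls. The means were 22.5 ± 2.46 CPM in Pax7Cre and 17.0 ± 3.76 CPM in miR-501KO mice (SD, n = 5 each), and the log2 fold change (miR-501KO over Pax7Cre) was -0.41 with a standard error of 0.134. In bulk muscle, fewer cells that express a gene and less of its RNA per cell cannot be told apart. Without miR-501KO mouse 4 the log2 fold change of *Id1* was -0.55.

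*Id3*, at chr4:136143497-136145755 on the plus strand, encodes a close relative of ID1 that is often expressed in the same cells. Pax7Cre mice 1 to 5 had 48.1, 41.8, 46.0, 38.2 and 38.9 CPM of *Id3*. The miR-501KO mice 1 to 5 had 32.8, 37.9, 36.8, 37.7 and 34.6 CPM. The groups did not overlap, but the lowest control and the highest miR-501KO mouse were close together, at 38.2 and 37.9 CPM. The means were 42.6 ± 4.34 and 35.9 ± 2.21 CPM (SD, n = 5 each), with a log2 fold change of -0.24 and a standard error of 0.0814. Over all genes tested, 11 had every miR-501KO mouse below every Pax7Cre mouse, which is 0.0763% of them, and 9 had every miR-501KO mouse above. Chance alone gives such a separation in a given direction in 1 of the 252 splits of the mice, a larger share than 0.0763%. *Id3* was chosen by this contrast, so nothing is read from its separation.

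*Id2*, at chr12:25093799-25097140 on the minus strand, encodes the ID protein best known in lymphoid and myeloid cells. Pax7Cre mice 1 to 5 had 53.1, 43.7, 35.3, 43.7 and 38.1 CPM, and miR-501KO mice 1 to 5 had 47.6, 47.2, 35.8, 43.2 and 45.9 CPM. Each miR-501KO value lay within the range of the controls. The log2 fold change was 0.039 with a standard error of 0.113, smaller than the spread between mice. It was 0.13 without Pax7Cre mouse 1, 0.10 without miR-501KO mouse 3 and -0.022 without Pax7Cre mouse 3. *Id4*, which is prominent in the nervous system, had 42 to 71 reads per mouse and shares exon bases with antisense transcripts, so its counts are uncertain. Its mean was 2.81 ± 0.624 CPM in Pax7Cre and 2.69 ± 0.624 CPM in miR-501KO mice (SD, n = 5 each), with a log2 fold change of -0.068 and a standard error of 0.199. *Id2* and *Id4* thus had differences smaller than their standard errors.

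The feedback genes and *Smad9* overlapped between the groups. *Smad6*, an inhibitory SMAD that mainly blocks BMP receptors, ranged from 2.51 to 4.70 CPM in Pax7Cre and from 2.45 to 3.71 CPM in miR-501KO mice (log2 fold change -0.18, standard error 0.190). *Smad7*, an inhibitory SMAD that acts on both BMP and TGF-beta receptors, ranged from 5.63 to 8.65 and from 5.66 to 7.20 CPM (log2 fold change -0.091, standard error 0.137). *Bambi*, a receptor without a kinase domain that blocks signaling, ranged from 5.59 to 9.51 and from 5.19 to 7.88 CPM (log2 fold change -0.14, standard error 0.152), and has a processed pseudogene that may share its reads. With all 10 mice the difference was within 1 standard error in each of these 3 genes, but that of *Bambi* was -0.018 without Pax7Cre mouse 3 and -0.22 without miR-501KO mouse 1. *Smad9*, a receptor-regulated SMAD with weak activity that is itself a BMP target, had between 7 and 31 reads in each library, with -0.015 as its log2 fold change and a standard error of 0.350. Without Pax7Cre mouse 5 the value for *Smad9* was 0.33, without Pax7Cre mouse 3 it was -0.19 and without miR-501KO mouse 1 it was 0.15. With a standard error of 0.350 a moderate difference in *Smad9* was not detectable. Without Pax7Cre mice 2 and 4, a setting chosen after seeing the data, the log2 fold changes were 0.059 for *Smad6*, 0.021 for *Smad7* and 0.035 for *Id4*, whereas all 3 were below 0 with them. Under the same setting they were -0.45 for *Id1*, -0.30 for *Id3* and -0.28 for *Bambi*.

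**Figure D1:**
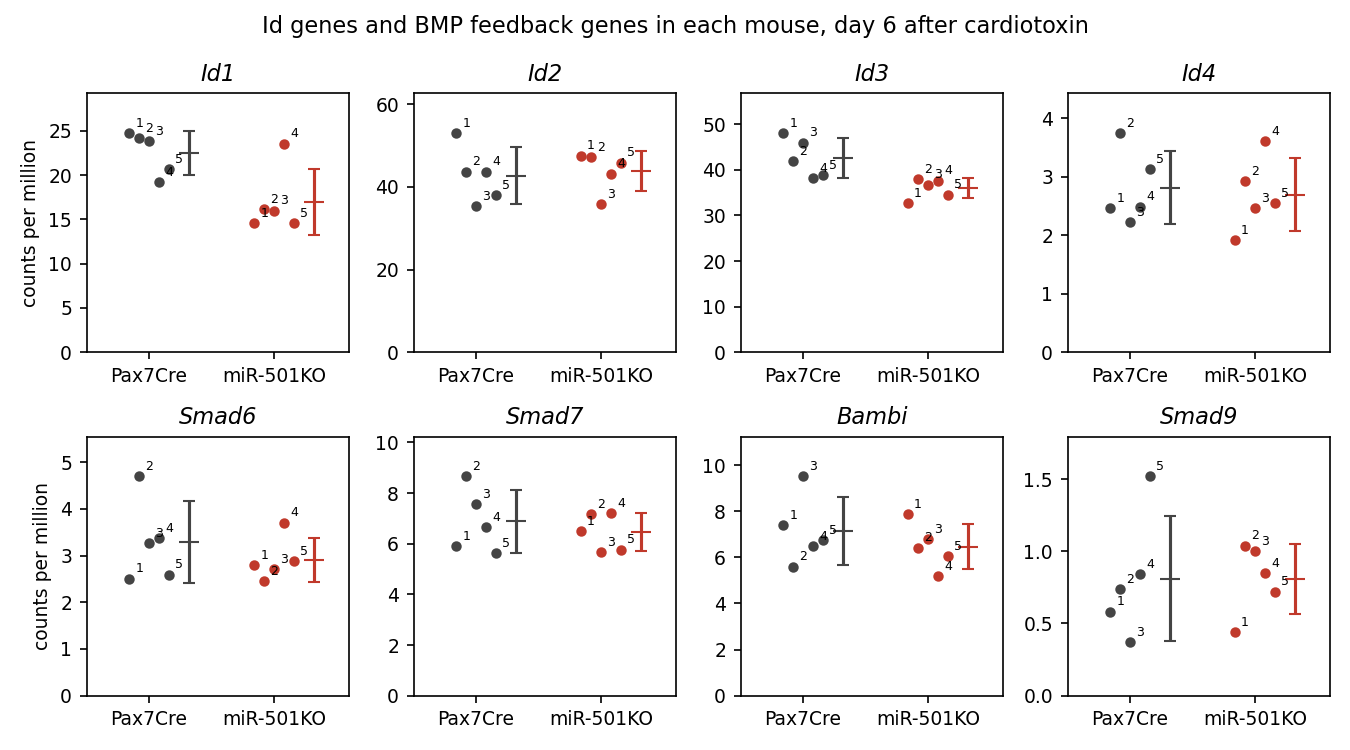
Normalized counts (CPM, vertical axis from 0) of the 8 genes in each mouse, grouped by genotype; numbers are the mouse numbers, and the bar beside the points is the mean ± SD of 5 mice. In *Id3* the groups do not overlap, in *Id1* miR-501KO mouse 4 (23.6 CPM) lies among the controls, and the other 6 genes overlap.

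All 8 genes passed the filter on low counts. Of 14410 genes tested with edgeR's quasi-likelihood test, 0 had a Benjamini-Hochberg adjusted p under 0.05 (0%), and 0 with DESeq2 or edgeR's likelihood ratio test. Without adjustment, 151 genes had a p under 0.05 in edgeR's quasi-likelihood test (1.05%), 96 lower (0.666%) and 55 higher (0.382%) in miR-501KO mice. Chance alone would give a share of about 0.05, so small p-values were fewer than chance gives. DESeq2 gave 98 lower and 52 higher, and the likelihood ratio test 95 and 64. *Id1* and *Id3* are 2 of the 8 genes at that threshold, and since they were chosen by a small p, nothing is read from this count. By p, *Id1* ranked at 9 and *Id3* at 10 among all genes, and *Smad6*, the next of the 8, ranked at 3007. The counts of genes rested on single libraries: without Pax7Cre mouse 2 there were 267 higher and 186 lower genes, without Pax7Cre mouse 4 there were 228 and 242, and without miR-501KO mouse 1 there were 59 lower genes.

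Levels were compared between genes per length, as RPKM, which is CPM divided by exon length in kilobases. That length covers the exons of all annotated transcripts, so the order and the shares below depend on which transcripts are in use. By CPM alone, the means of *Id2* (42.8 in Pax7Cre and 44.0 in miR-501KO mice) were above those of *Id3* (42.6 and 35.9). *Id3* was the most abundant at 21.9 RPKM, followed by *Id2* at 17.8 and *Id1* at 17.0, as means of 10 mice. *Id3* lay above *Id2* in 9 of 10 mice, and *Id2* above *Id1* in 6 of 10, so the order of the latter pair is within the spread. The other genes were more than an order of magnitude lower, with 1.48 RPKM for *Smad7*, 1.34 for *Bambi*, 0.967 for *Smad6*, 0.714 for *Id4* and 0.151 for *Smad9*. *Smad7* lay above *Bambi* in 5 of 10 mice, so their levels were not separated. Of the summed RPKM of the 4 *Id* genes, *Id1* made up 31.6 ± 1.81% in Pax7Cre and 27.2 ± 3.95% in miR-501KO mice, *Id2* 28.5 ± 3.17% and 33.8 ± 4.07%, and *Id3* 38.7 ± 1.90% and 37.7 ± 2.44% (SD, n = 5 each). *Id4* stayed below 1.56% in every mouse. These shares rest on the *Id1* and *Id3* values that the choice of genes used, so no change in *Id2* is read from them.

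The spread between mice differed among the genes. In Pax7Cre mice the coefficient of variation was 10.2% for *Id3* and 10.9% for *Id1*, and the median of all genes tested was 14.9%. In miR-501KO mice it was 6.15% for *Id3* and 22.2% for *Id1*, beside a median of 9.26%. A choice by small p favors genes with little spread within a group, so nothing is read from these values of *Id1* and *Id3*. Mouse 4 held the highest *Id1* value of the miR-501KO group. *Smad9*, with the fewest reads, had the largest values, 53.6% and 29.9%.

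The other genes of the pathway were followed by role. Of 16 BMP ligands 9 passed the filter, and their median log2 fold change was 0.0044, beside -0.0042 for all genes tested. It was 0.082 without Pax7Cre mouse 2 and -0.091 without Pax7Cre mouse 4. *Bmp5* had the highest mean count of the ligands, with 40.9 ± 4.61 CPM in Pax7Cre and 36.2 ± 1.43 CPM in miR-501KO mice (SD, n = 5 each; log2 fold change -0.18, standard error 0.0822). At an unadjusted p under 0.05, 1 ligand was lower and 1 higher, beside 0.666% and 0.382% of all genes tested. These shares of all genes are below what chance alone gives, so nothing is read from the counts of ligands. *Bmp3*, an atypical ligand that counteracts other BMPs, had between 4 and 19 reads in each library, and its log2 fold change was -0.90 (standard error 0.367). *Gdf3*, a ligand known from embryonic cells and macrophages, had 1.94 ± 0.712 and 3.60 ± 0.780 CPM (SD, n = 5 each), its log2 fold change was 0.88 (standard error 0.254), and 4 of the 5 miR-501KO mice lay above every control. Neither gene passed adjustment over all genes in edgeR. *Bmp5* shares exon bases with an antisense transcript, so its counts are uncertain.

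All 12 receptors and co-receptors and all 5 SMAD transducers passed the filter, and 0 of them had an unadjusted p under 0.05. The receptors had log2 fold changes between -0.13, for the type I receptor gene *Bmpr1b*, and 0.056, with a median of -0.059, which was -0.11 without Pax7Cre mouse 1 and -0.024 without Pax7Cre mouse 5. *Hjv*, which encodes the co-receptor hemojuvelin of skeletal muscle and liver, had the highest mean count, with a log2 fold change of 0.014 (standard error 0.188). The transducers lay between -0.038 for *Smad2* and 0.012, and *Smad5*, the most abundant by count, had 62.2 ± 2.84 CPM in miR-501KO mice with a log2 fold change of -0.014 (standard error 0.0722). All 5 transducers thus lay close to 0.

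Of 20 secreted antagonists and modulators 16 passed the filter, and 0 had an unadjusted p under 0.05. Their median log2 fold change was -0.13, and 13 of 16 were below 0, beside 7504 of 14410 over all genes tested. Without miR-501KO mouse 1 the median was -0.074. *Nog*, which encodes the BMP trap noggin, had the largest, -0.50 (standard error 0.314), from 13 to 41 reads per mouse. *Fstl1*, a secreted glycoprotein of mesenchymal cells, was the most abundant by count, with a log2 fold change of -0.071 (standard error 0.128). Of 10 intracellular SMAD regulators 0 passed that threshold, with a median of 0.015, which was -0.011 without Pax7Cre mouse 1 and 0.046 without Pax7Cre mouse 5. *Fkbp1a*, whose product holds type I receptors inactive, was at 0.0016 (standard error 0.0710), and *Skil*, a SMAD corepressor gene, at 0.16 (standard error 0.0923).

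The other target genes overlapped between the groups. Of 8 other BMP-SMAD targets 4 passed the filter, and 3 were below 0, beside 7504 of 14410 over all genes tested. Of these targets 0 had an unadjusted p under 0.05. Their median log2 fold change was -0.14, which was -0.036 without Pax7Cre mouse 2 and -0.086 without miR-501KO mouse 1. *Hey1*, a target in endothelial cells, was at -0.10 (standard error 0.118), and *Tmem100*, an endothelial gene induced through ALK1, had -0.21 (standard error 0.226). Of 8 TGF-beta target genes, 6 were above 0, beside 6906 of 14410 over all genes tested, and 0 had an unadjusted p under 0.05. Their median was 0.15, which was 0.039 without Pax7Cre mouse 2 and 0.23 without Pax7Cre mouse 4. *Ccn2*, a matrix-associated growth factor gene, had 0.29 (standard error 0.246), and *Postn*, which encodes periostin, had -0.074 (standard error 0.166). *Ccn2* overlaps a transcript of the opposite strand, so its counts are uncertain.

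ID proteins act on E proteins and on tissue helix-loop-helix factors. Of 14 such genes 13 passed the filter, 0 had an unadjusted p under 0.05, and the median log2 fold change was 0.011. It was -0.042 without Pax7Cre mouse 2 and 0.088 without Pax7Cre mouse 4. *Myog*, a regulator of myoblast differentiation, was the most abundant by count, with a log2 fold change of 0.092 (standard error 0.133), and *Scx*, a tendon factor, had the largest, 0.19 (standard error 0.133). *Tcf21* had 0 reads in all mice. *Id1* and *Id3* also respond to serum as immediate early genes do, and 16 such genes were listed. Of these, 1 was lower at an unadjusted p under 0.05, beside 0.666% of all genes tested. That share is below what chance alone gives, so nothing is read from this count. The median log2 fold change of the 16 was -0.060. This median was 0.027 without Pax7Cre mouse 2, so its sign rested on that mouse, and it was -0.089 without Pax7Cre mouse 4 and 0.011 without both. Without Pax7Cre mouse 3 it was -0.16. The lower gene was *Fos*, an AP-1 subunit gene, with 18.6 ± 5.19 CPM in Pax7Cre and 12.2 ± 2.43 CPM in miR-501KO mice (SD, n = 5 each; log2 fold change -0.61, standard error 0.191). *Jun*, its partner, was the most abundant by count, with a log2 fold change of 0.017 (standard error 0.118), and it overlaps an antisense transcript, so its counts are uncertain.

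**Figure D2:**
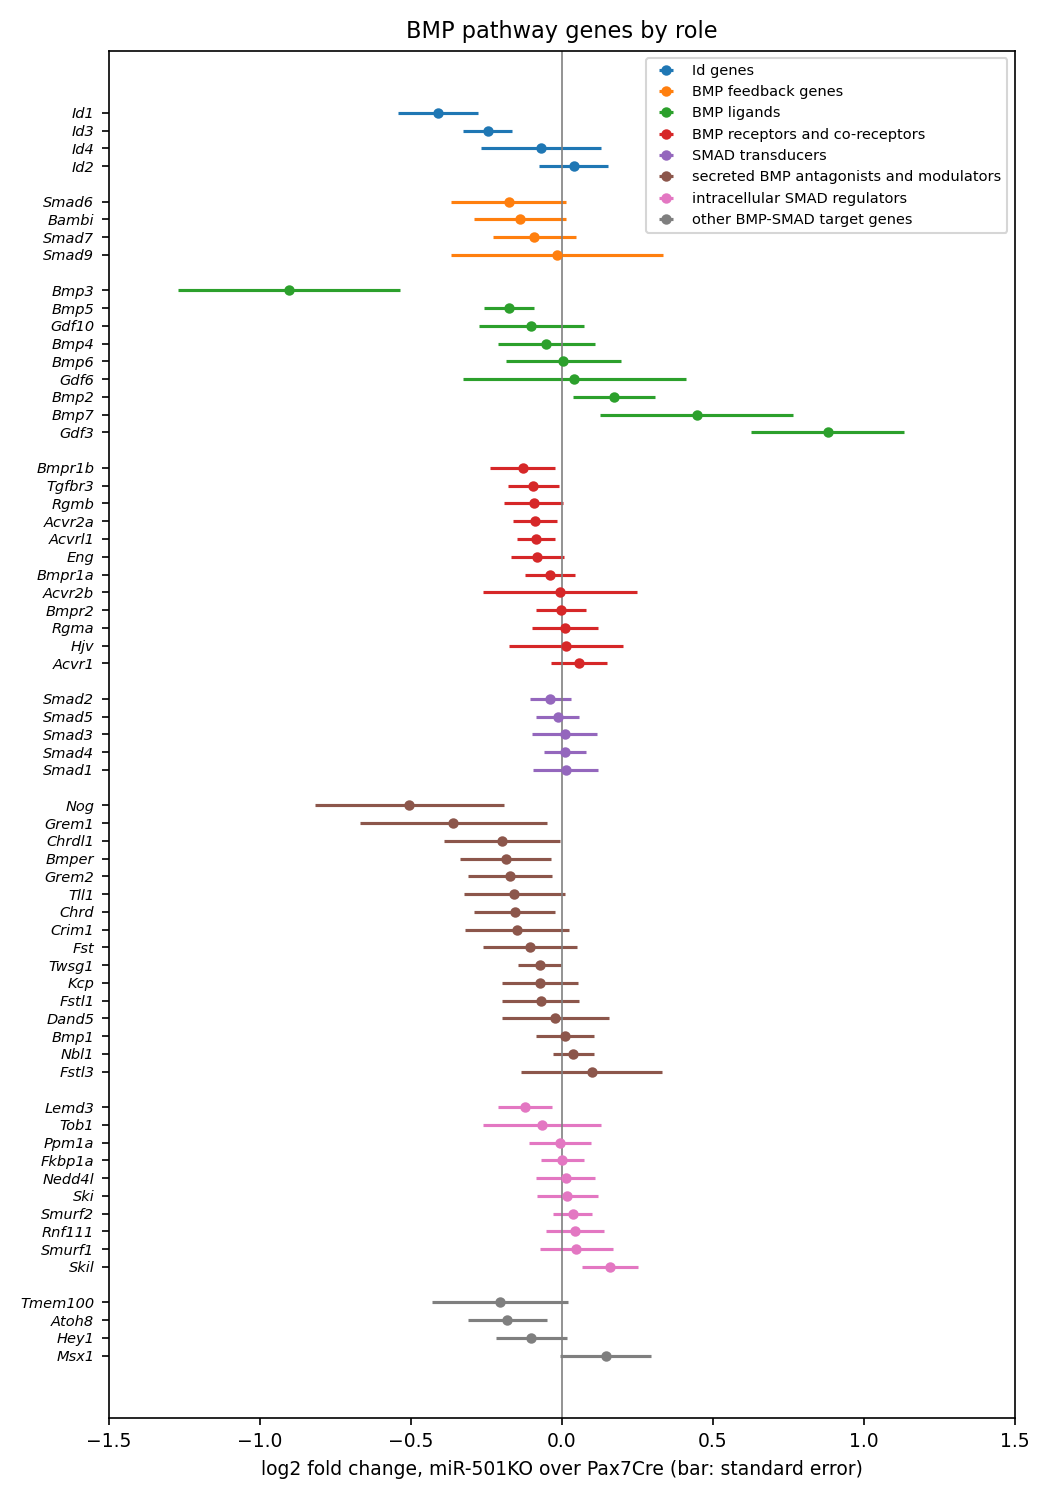
Log2 fold change (miR-501KO over Pax7Cre, horizontal axis) of the BMP pathway genes that passed the filter, with bars of 1 standard error, ordered by role and colored by list. *Id1* and *Id3* lie to the left of 0, and the receptors and SMAD transducers lie between -0.13 and 0.056.

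The content of other cell types was read from summed marker genes. The 12 endothelial markers, of which *Cdh5* was the most abundant and 0 were at 0 counts, summed to 994, 1147, 958, 877 and 1061 CPM in Pax7Cre mice 1 to 5. In miR-501KO mice 1 to 5 the sums were 919, 894, 1093, 1023 and 943 CPM. The groups overlapped, with means of 1007 ± 102 and 974.5 ± 81.9 CPM (SD, n = 5 each; exact two-sided permutation test, p = 0.587, adjusted p = 0.984 over 10 lists). Of the 12 endothelial genes 10 were below 0, with a median log2 fold change of -0.060, and of the 8 fibro-adipogenic progenitor genes 7 were, with a median of -0.085. None of these genes had an unadjusted p under 0.05 in edgeR. Over all genes tested, 7504 of 14410 were below 0. Relative to the endothelial sum, a scale chosen after seeing the data, the difference of mean log2 CPM was -0.38 for *Id1*, beside -0.43 without the scaling. For *Id3* it was -0.20, beside -0.24. This scaling shifts the difference of every gene by the same amount, set by the endothelial sum alone. Nothing about endothelial content in *Id1* or *Id3* is therefore read from these values. On that scale 2 of 5 miR-501KO mice lay below every control for *Id3*, and 4 of 5 for *Id1*. For the other 9 lists the log2 ratio of mean sums lay between -0.14 for adipocyte and 0.074 for mural cell markers, and 0 of 10 lists passed the test after adjustment (0.984 was the adjusted p of each list, from exact permutation tests whose smallest p is 0.00794). The adipocyte sum was mostly *Pnpla2* (76.7 CPM), a lipase gene. All 6 adipocyte genes were below 0, with a median log2 fold change of -0.33, and 0 had an unadjusted p under 0.05 in edgeR. In that list miR-501KO mouse 1 had the lowest values of all 10 mice for *Adipoq* (1.72 CPM), an adipokine gene, *Plin1* (0.921 CPM), *Cidec* (0.200 CPM) and *Cfd* (1.08 CPM). The other 4 miR-501KO mice had 10.9 to 21.9 CPM of *Adipoq*, within the 9.27 to 30.6 CPM of the controls. These 4 genes are named because of miR-501KO mouse 1, after their values were seen. That all 6 adipocyte genes were below 0 rested in part on that mouse. The most abundant markers were *Acta2* for mural cells, *Dcn* for fibro-adipogenic progenitors, *Lyz2* for macrophages, *Myog* for myogenic progenitors, *Actc1* for regenerating fibers, *Mylpf* for mature fibers, *Mbp* for Schwann cells, *Pnpla2* for adipocytes and *Trac* for T and B cells. No marker in these lists was at 0 counts in all mice. The part of cell content in the *Id1* and *Id3* values was not tested.

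A separate question is whether the 8 genes varied together between mice of one genotype. The choice of *Id1* and *Id3* by a small p drew on their spread within each genotype. The relations of these 2 genes are therefore not independent of that choice. Genotype means were subtracted from log2 CPM, and mice were permuted within each genotype over all 14400 pairings. Of 28 pairs, 3 had an unadjusted exact p under 0.05 and 0 had an adjusted p under 0.05. How often pairs of other genes reach this was not computed, so nothing is read from the count. *Id1* and *Id3* had r = 0.65 (exact permutation p = 0.0245, adjusted p = 0.284) and rho = 0.82 (exact p = 0.00896, adjusted p = 0.186) over 10 mice, with r = 0.73 without the 2 mice farthest from the median of *Id1*. *Smad6* and *Smad7* had r = 0.75 (exact permutation p = 0.0304, adjusted p = 0.284) and rho = 0.75 (exact p = 0.0374, adjusted p = 0.349), and r = 0.41 without the 2 farthest mice, so this relation rested in part on them. *Id4* and *Bambi* moved in opposite directions, with r = -0.87 (exact permutation p = 0.00333, adjusted p = 0.0933), rho = -0.79 (exact p = 0.0133, adjusted p = 0.186) and r = -0.72 without the 2 farthest mice. None of these relations passed adjustment.

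Against the marker sums, 11 of 80 relations had an unadjusted exact p under 0.05 and 0 had an adjusted p under 0.05. How many of all genes tested have such relations was not computed, so the count is not read as a trait of these genes. Pax7Cre mice 2 and 4 held the highest and lowest mature fiber sums of all mice (85383 and 33584 CPM). *Id3* and mural cell markers had r = -0.74 (exact permutation p = 0.0478, adjusted p = 0.331) and rho = -0.75 (exact p = 0.0430, adjusted p = 0.430), with r = -0.83 without the 2 farthest mice. *Id1* and mural cell markers had r = -0.62 (exact permutation p = 0.0451, adjusted p = 0.331) and rho = -0.81 (exact p = 0.0101, adjusted p = 0.269), with r = -0.89 without them. The mural sum was led by *Acta2* (640 CPM), and its genes did not all move together. Pax7Cre mouse 4 had 804 CPM of *Acta2* and 263 CPM of *Rgs5*, another marker of that list. Pax7Cre mouse 2 had 387 and 445 CPM. These relations are therefore with the sum, and single mural genes were not tested against *Id1* or *Id3*. The mural sum was not the only one with such values for *Id1*. *Id1* and fibro-adipogenic progenitor markers had r = 0.53 (exact permutation p = 0.0315, adjusted p = 0.331) and rho = 0.55 (exact p = 0.123, adjusted p = 0.526), with r = 0.90 without the 2 farthest mice. *Id1* and myogenic progenitor markers had r = -0.50 (exact permutation p = 0.0320, adjusted p = 0.331) and rho = -0.71 (exact p = 0.0392, adjusted p = 0.430), with r = -0.86 without them. *Id1* and Schwann cell markers had r = 0.66 (exact permutation p = 0.0386, adjusted p = 0.331) and rho = 0.43 (exact p = 0.249, adjusted p = 0.601), with r = 0.67 without them. *Id1* and regenerating fiber markers had r = -0.70 (exact permutation p = 0.0528, adjusted p = 0.331) and rho = -0.41 (exact p = 0.280, adjusted p = 0.622), with r = -0.36 without them. The sums of different cell types thus moved with *Id1* in both directions, and none passed adjustment with all 10 mice. *Id1* and endothelial markers had r = 0.42 (exact permutation p = 0.236, adjusted p = 0.578) and rho = 0.49 (exact p = 0.181, adjusted p = 0.576), with r = 0.51 without the 2 farthest mice. *Id3* and endothelial markers had r = 0.15 (exact permutation p = 0.720, adjusted p = 0.864) and rho = 0.16 (exact p = 0.701, adjusted p = 0.860), with r = -0.085 without the 2 farthest mice. No relation with endothelial content was thus detectable for either gene. *Id2* had its highest r with macrophage markers, 0.69 (exact permutation p = 0.0576, adjusted p = 0.331; rho = 0.76, exact p = 0.0204, adjusted p = 0.408), and 0.79 without the 2 farthest mice. *Id4* and adipocyte markers had r = 0.76 (exact permutation p = 0.0256, adjusted p = 0.331) and rho = 0.92 (exact p = 0.000833, adjusted p = 0.0667), with r = 0.69 without them. *Id4* and mature fiber markers had r = 0.68 (exact permutation p = 0.0183, adjusted p = 0.331) and rho = 0.83 (exact p = 0.00896, adjusted p = 0.269), with r = 0.32 without them.

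Both inhibitory *Smad* genes had negative values with regenerating fiber markers and positive values with Schwann cell markers. *Smad6* and regenerating fiber markers had r = -0.77 (exact permutation p = 0.0194, adjusted p = 0.331) and rho = -0.56 (exact p = 0.136, adjusted p = 0.526), with r = -0.19 without the 2 farthest mice. *Smad6* and Schwann cell markers had r = 0.77 (exact permutation p = 0.0253, adjusted p = 0.331) and rho = 0.48 (exact p = 0.211, adjusted p = 0.590), with r = 0.083 without them. These relations of *Smad6* rested on those 2 mice. *Smad7* and regenerating fiber markers had r = -0.70 (exact permutation p = 0.0297, adjusted p = 0.331) and rho = -0.65 (exact p = 0.0712, adjusted p = 0.526), with r = -0.42 without the 2 farthest mice. *Smad7* and Schwann cell markers had r = 0.69 (exact permutation p = 0.0496, adjusted p = 0.331) and rho = 0.48 (exact p = 0.194, adjusted p = 0.576), with r = 0.52 without them. Some calls against marker sums rested on 1 mouse: without Pax7Cre mouse 1, *Id3* with mural cell markers (r = -0.90) and *Id1* with fibro-adipogenic progenitor markers (r = 0.61) passed adjustment, and without Pax7Cre mouse 3, *Id4* with adipocyte markers did (r = 0.87), in exact permutation tests.

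**Figure D3:**
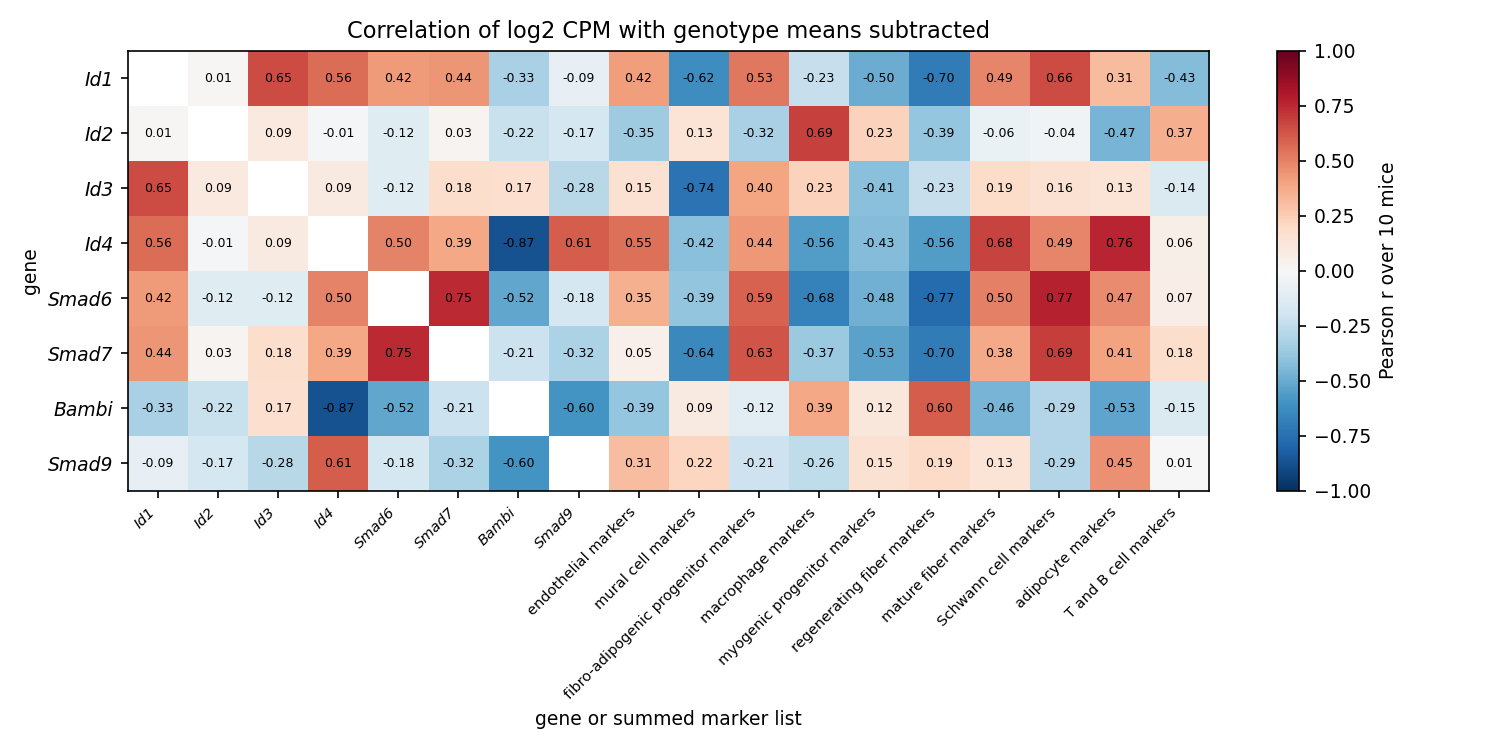
Pearson r over 10 mice between log2 CPM of the 8 genes (vertical axis) with, on the horizontal axis, each other and the 10 summed marker lists, after genotype means were subtracted; red is positive and blue negative. *Id1* with *Id3* (0.65) and *Smad6* with *Smad7* (0.75) are positive, and *Id4* with *Bambi* (-0.87) is negative.

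Among 13577 genes with a mean of at least 1 CPM, those most like *Id1*, *Id2* and *Id3* over the 10 mice were listed by Pearson r on the same scale. *Id4* was left out because of its low mean, under 10 CPM. For *Id2* they were *Irf8* (0.96), *Napsa* (0.95), *Gmfg* (0.94), *Lsm4* (0.94) and *Tspan32* (0.93). *Irf8* encodes a transcription factor of myeloid cells. For *Id1* they were *Pkd2l2* (0.93), *Coprs* (0.91), *Gpatch4* (0.91), *Calr3* (0.91) and *Gcsam* (0.90), and for *Id3* they were *Lsm8* (0.95), *Akr1e1* (0.92), *Mtrf1l* (0.92), *Tmem218* (0.90) and *Cmtr2* (0.90). They are the highest of many values over 10 mice and carry no test.

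Promoter windows from RefSeq (GRCm38.p6), 250 bases before to 50 bases from the start of a transcript, were found for 5 of the 8 genes, *Id2*, *Id3*, *Id4*, *Smad6* and *Smad9*, and none for *Id1*, *Smad7* and *Bambi*. They were searched on both strands for 3 SMAD-related motifs: GGCGCC, a GC-rich element bound by SMAD1 and SMAD5, GTCTAGAC, the palindromic SMAD-binding element, and CAGAC, the SMAD box, which overlaps the palindrome in AGAC. Of 32851 windows, 11.9% held GGCGCC, 0.213% held GTCTAGAC and 49.6% held CAGAC. Among the 5 genes, GGCGCC occurred in *Id2*, *Id4* and *Smad9*, GTCTAGAC in *Smad6*, and CAGAC in *Id3*, on either strand. The stretches around the matches are shown because these genes are classic SMAD targets, with the motif in capitals. They lie at chr12:25096306-25096335 on the minus strand for *Id2*, chr4:136143643-136143671 and chr4:136143742-136143770 on the plus strand for *Id3*, chr13:48260956-48260985 on the plus strand for *Id4*, chr9:64022045-64022074 on the minus strand for *Smad6* and chr3:54755519-54755548 on the plus strand for *Smad9*.
*Id2*: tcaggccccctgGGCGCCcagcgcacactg
*Id3*, first match: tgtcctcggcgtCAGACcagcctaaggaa
*Id3*, second match: ggacccttggcgGTCTGttttgaataagg
*Id4*: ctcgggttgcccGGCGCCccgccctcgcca
*Smad6*: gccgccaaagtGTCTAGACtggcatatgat
*Smad9*: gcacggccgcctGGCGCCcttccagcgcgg
In GENCODE M21 the *Id4* and *Smad9* stretches lie upstream of the gene. The *Id3* stretches lie in an exon of 1 of its 3 transcripts, the *Smad6* stretch overlaps an exon of 1 of 3, and the *Id2* stretch lies in an intron of 1 of 3. A match describes the letters and is not evidence of binding.

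The mature sequences of the miRNA are shown because its seed guides much of its pairing with transcripts. The 3p form lies at chrX:7241270-7241291 on the minus strand, and miR-500-3p, at chrX:7237695-7237716 on the same strand, has the same seed, shown in capitals (bases 2 to 8).
miR-501-3p: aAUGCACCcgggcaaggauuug
miR-500-3p: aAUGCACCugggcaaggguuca
The reverse complement of this seed, GGTGCAT, was searched on the sense strand of the annotated 3′ untranslated regions. It was found in 0 of the 8 genes, and in 8.19% of 14153 tested genes with a coding transcript, so *Id1* and *Id3* hold no such match in these regions. The 5p form, shorter seed matches and sites outside these regions were not searched.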

How the data were processed

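Per the labels and the study's methods, polyadenylated RNA was sequenced from stranded libraries. The authors aligned reads with STAR, and their processing notes name featureCounts, R 3.5.1 and GRCm38.p5; the strand setting is not given in the sources used here, so reads of overlapping antisense genes may be shared. They deposited raw counts per gene. Identifiers were matched to GENCODE M21 (GRCm38; 25664 of 25700). In R 4.3.3, edgeR 4.0.16 gave TMM factors, CPM and the quasi-likelihood test after filterByExpr (minimum count 10, minimum total 15), with genotype as the single factor. Alternatives used DESeq2 1.42.0, other filters, a replicate block and leaving out mice. Correlations used log2 CPM with a prior count of 1. RPKM used summed exon length. The fit and the correlations were tested on simulated data. Named genes are the 8 genes, pathway genes at an unadjusted p under 0.05, with the highest mean CPM or the largest log2 fold change of their list, the most abundant marker of each cell type, and the 5 nearest genes. *Adipoq*, *Plin1*, *Cidec* and *Cfd* were added for their values in miR-501KO mouse 1, *Tcf21* for its lack of reads and *Rgs5* for its values beside *Acta2*. The members and lists were chosen with earlier results of these data known. Mice of one genotype differed beyond counting noise (chi-square over degrees of freedom 9.47 or more), so each was counted as a replicate.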

Additional observations from a re-analysis of the deposited data

Results flagged for a closer look

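In 36 groups of 5 mice, the 8 genes and 10 marker sums in each genotype, 3 held a mouse far from the other 4, and chance alone gives about 1 in 20 such groups. *Id1* in miR-501KO mouse 4 was at 23.6 CPM, beside 16.2 CPM in the next mouse, a gap of 0.820 of the range of its group. This mouse had the highest *Id1* of its group and lay within the range of the controls. It also had the highest first principal component score of its group (17.2, next -1.43), the highest mitochondrial share (12.7%), the lowest regenerating fiber marker sum (6455 CPM) and the highest mature fiber marker sum (65768 CPM). Their part in its *Id1* value was not tested. The adipocyte marker sum of miR-501KO mouse 1 was 62.2 CPM, beside 113.6 CPM in the next mouse. The T and B cell marker sum of Pax7Cre mouse 2 was 20.4 CPM, beside 12.0 CPM in the next mouse.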

How the results depend on the processing

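With 6 other choices of scaling, filter, block or test, with each of 10 mice left out, and without Pax7Cre mice 2 and 4 (added after seeing the data), 0 genes passed adjustment in edgeR or DESeq2. Counting p under 0.05 before adjustment, 55 genes were higher and 96 lower, beside 153 and 159 without a filter, 36 higher with at least 10 counts in every mouse, a filter that *Smad9* did not pass, and 279 and 252 without Pax7Cre mice 2 and 4. Leaving out 1 mouse gave 39 to 267 higher and 59 to 242 lower genes. The cause was not tested. The log2 fold change then lay between -0.55 and -0.36 for *Id1*, between -0.28 and -0.20 for *Id3*, between -0.19 and 0.050 for *Id4*, between -0.27 and -0.021 for *Smad6* and between -0.15 and 0.00033 for *Smad7*. It changed sign in 2 of 17 settings for *Id2*, 3 for *Id4*, 1 for *Smad6*, 2 for *Smad7* and 4 of 16 for *Smad9*. Relations of the 8 genes with marker sums at an adjusted p under 0.05 numbered 0 to 2 when 1 mouse was left out. Median log2 fold changes with 1 mouse left out ranged from -0.091 to 0.082 for ligands, from -0.17 to -0.074 for antagonists, from 0.039 to 0.23 for TGF-beta targets, from -0.17 to -0.036 for other BMP-SMAD targets, from -0.16 to 0.027 for immediate early genes, from -0.11 to -0.024 for receptors, from -0.044 to 0.023 for transducers, from -0.011 to 0.046 for intracellular regulators and from -0.042 to 0.088 for partners of ID proteins.

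With a replicate block, the mouse number as a term, 87 genes were higher, without adjustment, at a p under 0.05. The labels do not say that equal numbers pair mice. Correlations between equally numbered mice were 0.33, -0.15, 0.15, -0.29 and 0.20 for mice 1 to 5, and 3 of 5 controls correlated best with their own number. Among the values fitted with the block, it changed no other call (0 genes passed adjustment and 102 were lower), and the log2 fold change of *Smad9* was 0.030. Marker sums, correlations and the single genes *Gdf3*, *Bmp3* and *Fos* were not compared under it. For genes with few reads, such as *Smad9* and *Bmp3*, counting adds to the spread between mice, and its share in that spread was not tested.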
